A study of Saccharomyces cerevisiae and Saccharomyces kudriavzevii and Saccharomyces uvarum with 18 samples.

Results

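The comparison described here set S. uvarum CECT 12600 against Fermol cryophile, a wine yeast of the species S. cerevisiae that is sold commercially, in wine fermentations at 12°C and at 28°C. It used 12 of the 18 arrays of the series, namely 6 arrays of S. uvarum (3 at 12°C and 3 at 28°C) and 6 arrays of Fermol cryophile (3 at 12°C and 3 at 28°C), all chosen by their labels. On every array the strain was labelled with Cy3 and S. cerevisiae Lalvin T73, a mesophilic wine strain fermenting at the same temperature, with Cy5. In the difference between the log2 ratios of S. uvarum and Fermol cryophile, T73 cancels if its RNA was the same on the arrays compared. Whether it was the same was not tested. The genes of interest are those that differed in the same direction at both temperatures. The study, which names this species S. bayanus var. uvarum, examined how cryotolerant wine yeasts form aroma. It counts Fermol cryophile as well as S. uvarum CECT 12600 among the cryotolerant strains. Cells were harvested from Tempranillo must when they entered stationary phase. By the titles each group was 1 strain in replicates A, B and C, so that strain and species cannot be told apart. The strain field of the S. uvarum labels differs between replicates. The arrays carried PCR products of the open reading frames of S. cerevisiae S288c. RNA of S. uvarum met probes from another species. The study reports that in its DNA test of the arrays most genes of this strain hybridised. Values of that test for single genes were not used here. In the data used, a lower transcript level cannot be told apart from weaker hybridisation or from a gene that the strain lacks.

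Saccharomyces yeasts ferment grape must by turning sugar into ethanol, with acetate, glycerol and volatile esters and alcohols as by-products. S. uvarum is known from cool fermentations and S. cerevisiae from warm ones, although the study calls Fermol cryophile cryotolerant. Wine strains of S. cerevisiae often carry several copies of CUP1, which encodes the copper-binding metallothionein. Genes near chromosome ends belong to families whose copies resemble each other and vary in number among strains.

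The arrays of the same strain and temperature correlated with Pearson r across genes between 0.0411 and 0.739 (median 0.45 over 12 pairs). Between the strains at the same temperature r lay between -0.0246 and 0.787 (median 0.27 over 18 pairs), and 8 of the 12 arrays were closer on average to their own strain than to the other. Across temperatures 12 of 36 pairs lay below -0.3, the lowest at -0.637 within Fermol cryophile. The labels state the same dyes on all arrays and the temperatures are different conditions, so the direction was kept. Fermol cryophile replicate C at 28°C had the narrowest spread, with 6.1% of its genes at least 2-fold from T73, against 28.7% to 52.7% on the other 11 arrays. The p-values measure the spread between arrays. The series speaks of biological replicates while the methods mention fewer fermentations than arrays per group, and p-values would be too small if arrays shared a fermentation.

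In the limma fit, 5 of 6114 genes tested differed between the strains at an adjusted p under 0.05 when both temperatures were averaged (0.0818%). Those genes are referred to as called. They were CUP1-2, CUP1-1, COS6 and YIR043C, which were lower in S. uvarum (4 genes, 0.0654%), and THI4, which was higher (1 gene, 0.0164%). All 5 kept their direction at both temperatures, and in all 5 the arrays of the strains did not overlap at either temperature. With each array centred on its median the split was 0 higher and 4 lower, with arrays scaled to equal spread it was 4 and 4, and with quantile normalisation 5 and 6. An unadjusted p under 0.05 was reached by 788 genes (12.9%), of which 483 were higher (7.9%) and 305 lower (4.99%) in S. uvarum. The gene lists set beside these shares below were chosen with earlier results of these data known, so their counts are descriptions. The median standard error (SE) of a difference on the log2 scale was 0.49, and the median difference over all genes was 0.01.

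Copper detoxification held the largest differences among the called genes. CUP1-2 (YHR055C), 1 of the metallothionein genes, had log2 ratios to T73 of -2.24, -3.24 and -3.28 in S. uvarum at 12°C (replicates A, B and C), against 1.61, 1.63 and 0.91 in Fermol cryophile at 12°C. At 28°C they were -3.12, -2.60 and -2.50 in S. uvarum, against 1.66, 0.68 and 0.12 in Fermol cryophile. Every S. uvarum array thus lay below T73 and every Fermol cryophile array above it. Averaged over the temperatures CUP1-2 was lower in S. uvarum by a log2 difference of -3.93 (SE 0.47, limma adjusted p = 0.000962), a level 15.3-fold higher in Fermol cryophile, and it was the 1 gene called at 12°C alone (1 of 6154, 0.0162%). CUP1-1 (YHR053C), a nearly identical copy, read -1.19, -2.59 and -3.54 in S. uvarum at 12°C, against 1.11, 1.74 and 1.14 in Fermol cryophile at 12°C. At 28°C CUP1-1 read -2.99, -2.0 and -2.87 in S. uvarum, against 1.37, 0.25 and 0.10 in Fermol cryophile. The strains again lay on opposite sides of T73 on all 12 arrays, and the averaged difference was -3.48 (SE 0.51, limma adjusted p = 0.00723). Probes for the 2 copies can bind the same transcripts, so that they are not independent evidence. Both stayed called under all 8 alternative settings of the fit and without any 1 of the 12 arrays. In S. kudriavzevii, the other species that is not S. cerevisiae, CUP1-2 averaged -1.98 ± 1.61 at 12°C and -1.20 ± 0.35 at 28°C (SD, n = 3 each).

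**Figure D1:**
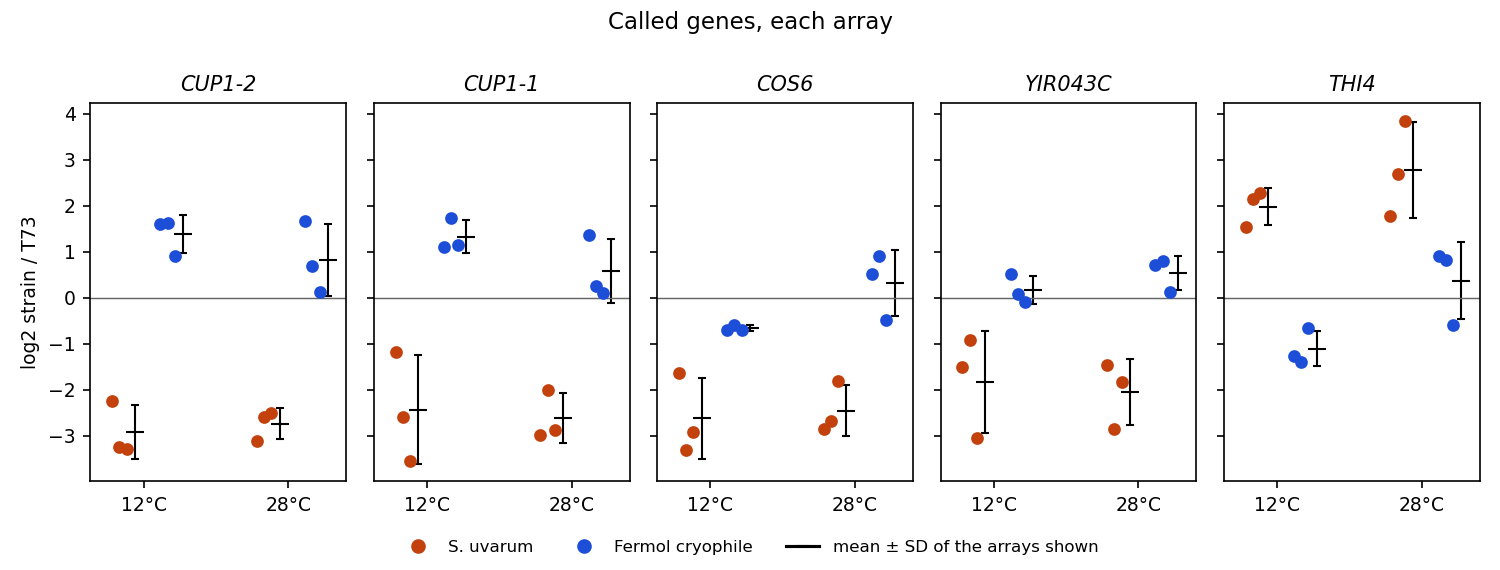
Log2 ratio of strain over T73 on each array for the 5 called genes at 12°C and 28°C, with S. uvarum left of Fermol cryophile. Points are arrays and bars give the mean ± SD of the 3 arrays; in all 5 genes the points of the strains do not overlap at either temperature, with CUP1-2 in S. uvarum between -3.28 and -2.24.

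Of the 14 genes of copper detoxification and uptake, 2 were called lower, both CUP1 copies. An unadjusted p under 0.05 was reached by 6 that lay lower in S. uvarum, against 4.99% of all genes, and by 2 that lay higher, against 7.9% of all genes. Without both CUP1 copies 4 of 12 lay lower with such a p, 2 lay higher and 0 were called. The largest difference of the list in the higher direction was 0.83. The 4 that lay lower are named here after their values had been seen. They were FRE7 (-1.70, SE 0.66) and FRE1 (-1.25, SE 0.55), which encode metal reductases, CTR1, the high-affinity copper transporter (-1.02, SE 0.41), and CRS5. The median of the list was -0.24 with the CUP1 copies and 0.04 without them, against 0.01 over all genes. CUP2, the copper-responsive activator of CUP1, differed by 0.44 (SE 0.44, limma adjusted p = 0.695) and was not called. CRS5, a second metallothionein, read 0.54, -0.73 and -1.06 in S. uvarum at 12°C, against 3.44, 1.44 and 0.66 in Fermol cryophile. At 28°C its arrays read -2.04, -1.41 and -1.42 in S. uvarum, against -1.14, -1.77 and -1.31 in Fermol cryophile. The arrays of CRS5 overlapped at 28°C but not at 12°C, and with an averaged difference of -1.24 (SE 0.56, limma adjusted p = 0.359) it was not called. Without 1 array the lower count of 6 ranged between 3 and 6, being 3 without replicate A of S. uvarum at 28°C or of Fermol cryophile at 12°C or 28°C, and the higher count of 2 ranged between 0 and 2.

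The COS family, membrane proteins encoded mostly beside chromosome ends and known for sending plasma membrane proteins to the vacuole, made up the rest of the lower calls. COS6 (YGR295C) had ratios of -1.63, -3.32 and -2.91 in S. uvarum at 12°C, against -0.70, -0.59 and -0.69 in Fermol cryophile at 12°C. At 28°C COS6 read -2.86, -2.69 and -1.81 in S. uvarum, against 0.53, 0.91 and -0.47 in Fermol cryophile. Every S. uvarum array of COS6 lay below every Fermol cryophile array, with a difference of -2.37 on average (SE 0.38, limma adjusted p = 0.0155). YIR043C, which the annotation lists as a pseudogene, read -1.5, -0.92 and -3.06 in S. uvarum at 12°C, against 0.51, 0.09 and -0.09 in Fermol cryophile. At 28°C YIR043C read -1.47, -2.85 and -1.83 in S. uvarum, against 0.71, 0.81 and 0.12 in Fermol cryophile. The groups did not overlap, and the averaged difference was -2.30 (SE 0.42, limma adjusted p = 0.0449). The call of COS6 held under 6 of the 8 settings and without 5 of the 12 arrays, the highest adjusted p being 0.0809 without Fermol cryophile replicate B at 28°C. The call of YIR043C held under 5 settings and without 4 of the arrays, the highest adjusted p being 0.166 without Fermol cryophile replicate B at 12°C.

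Since 2 of these genes were related, the 12 COS sequences on the array were put together, a list made after their values had been seen and therefore given without a test. All 12 averaged differences lay below 0, with a median of -2.02 against 0.01 over all genes. An unadjusted p under 0.05 was reached by 10, against 4.99% of all genes in the lower direction. By the median 8 were at least 2-fold lower in S. uvarum at both temperatures. Of 6114 genes 213 passed this rule (3.48%), and 209 passed it in the higher direction (3.42%). In 6 of the 12 the strains did not overlap at either temperature, as in 58 of 5507 genes with values on all 12 arrays (1.05%; 105 did so in the higher direction, 1.91%). The members not called with the largest differences were COS3 (-2.77, SE 0.68, limma adjusted p = 0.0966) and COS1 (-2.70, SE 0.59, limma adjusted p = 0.0829). COS2 (-0.14, SE 0.45) and COS10 (-0.59, SE 0.45) were the 2 members with an unadjusted p of 0.05 or more. COS1 had no value on replicate A of Fermol cryophile at 12°C, and its fit used the other arrays. The family's median on single arrays was -1.66, -2.04 and -3.11 in S. uvarum at 12°C, against -0.83, -0.43 and -0.46 in Fermol cryophile at 12°C. At 28°C it was -1.89, -2.33 and -1.24 in S. uvarum, against 0.61, 1.05 and -0.53 in Fermol cryophile. At both temperatures the 3 S. uvarum medians lay below the 3 of Fermol cryophile. The members share sequence, so probes for 1 can bind transcripts of another, and 12 similar values are fewer than 12 independent ones. In S. kudriavzevii COS6 averaged -2.25 ± 0.14 at 12°C and -1.36 ± 0.50 at 28°C (SD, n = 3 each).

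**Figure D2:**
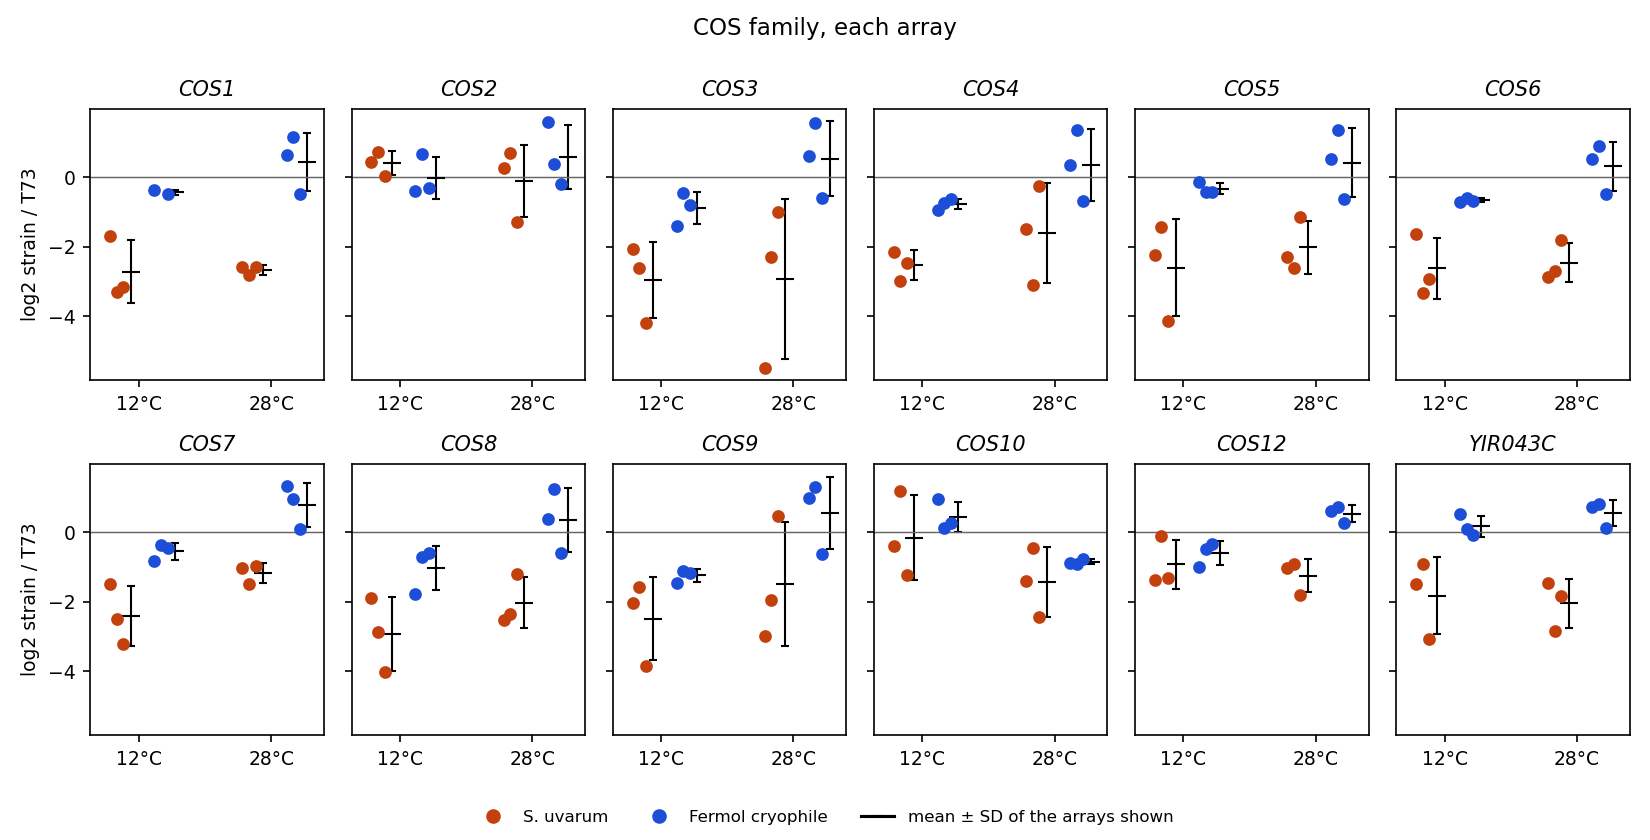
Log2 ratio of strain over T73 on each array for the 12 COS sequences, S. uvarum left of Fermol cryophile at each temperature, with mean ± SD of the arrays with a value. Most S. uvarum points lie below -1 while those of Fermol cryophile lie nearer to 0. In 6 of the 12, all with a value on every array, the strains do not overlap at either temperature. COS2 and COS10 have the smallest averaged differences.

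Position along the chromosomes was described from the gene order of assembly R64. Of the 295 tested genes among the outermost 10 at a chromosome end, 26 were at least 2-fold lower in S. uvarum by the median at both temperatures (8.81%) and 21 at least 2-fold higher (7.12%). Among the 5330 other genes with a position the counts were 142 lower (2.66%) and 176 higher (3.3%). Without the COS family 19 of 284 outermost genes were lower (6.69%). Both directions were thus more frequent at the ends; genes there have many near copies, and the part of shared probes in this was not tested.

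THI4 (YGR144W), which makes the thiazole part of thiamine and is used up in doing so, was the single gene called higher in S. uvarum. Its ratios were 1.53, 2.15 and 2.27 in S. uvarum at 12°C, against -1.26, -1.39 and -0.66 in Fermol cryophile at 12°C. At 28°C they were 1.78, 2.69 and 3.85 in S. uvarum, against 0.91, 0.81 and -0.60 in Fermol cryophile. All S. uvarum arrays lay above all Fermol cryophile arrays, with an averaged difference of 2.75 (SE 0.50, limma adjusted p = 0.0449), a 6.71-fold higher level in S. uvarum. The call was lost under 3 of 8 settings, with adjusted p up to 0.0559, and without any of 10 of the 12 arrays, with adjusted p up to 0.174 without Fermol cryophile replicate B at 12°C. It held without S. uvarum replicate A at 12°C or at 28°C. In the list of 19 thiamine genes THI4 was the only one called, and the median was 0.48. An unadjusted p under 0.05 was reached by 4 that lay higher, THI4 included (21.1%, against 7.9% of all genes). The others were THI13 (1.98, SE 0.64) and THI11 (1.84, SE 0.74), near copies of each other that make the pyrimidine part, and THI6 (1.20, SE 0.52), which joins both parts. In S. kudriavzevii THI4 averaged -0.55 ± 1.61 at 12°C and -0.56 ± 0.25 at 28°C (SD, n = 3 each).

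Both temperatures were also tested on their own. At 28°C none of 6131 genes was called (0%; smallest limma adjusted p = 0.106), with 516 at an unadjusted p under 0.05, and at 12°C 501 genes reached an unadjusted p under 0.05. A change of the strain difference between 28°C and 12°C was called in 0 of 6114 genes (0%; smallest limma adjusted p = 0.997), with 169 at an unadjusted p under 0.05. Of the 6114 genes, 3651 had the same sign at both temperatures (59.7%). An exact permutation of the strain labels within each temperature (two-sided, 400 assignments) gave 179 genes the smallest p it allows, 0.005, the 5 called genes among them. It gave no adjusted p below 0.171 over all genes. A gene without overlap in the same direction at both temperatures must reach 0.005, so this adds no evidence for the 5.

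**Figure D3:**
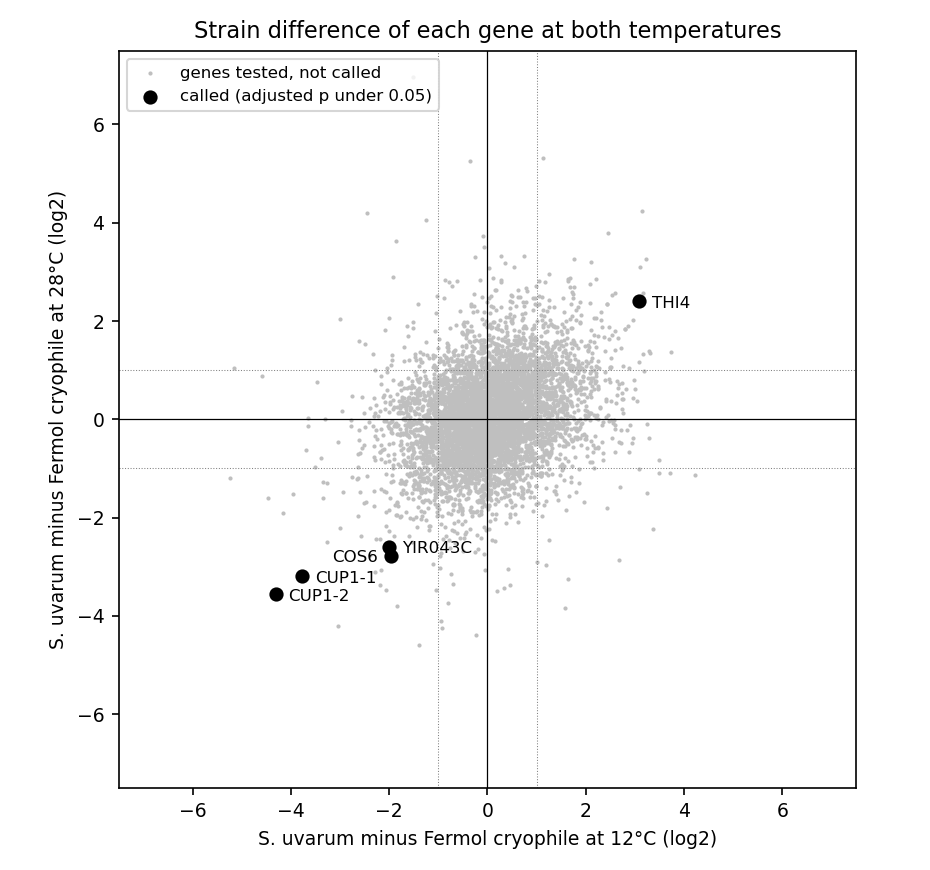
Difference of S. uvarum minus Fermol cryophile on the log2 scale at 12°C (horizontal) and 28°C (vertical) for the 6114 genes tested, with the 5 called genes in black and dotted lines at 2-fold. CUP1-1 and CUP1-2 lie farthest toward the lower left, while the remaining genes form a broad cloud in which 59.7% have the same sign at both temperatures.

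In each direction 12 genes were then examined, the called ones first and after them those of smallest unadjusted p, among genes with a value on all 12 arrays and at least 2-fold apart at both temperatures. They were not the 12 largest differences, since COS3 and others with larger differences and larger p were not among them. Of the 12 higher in S. uvarum, 1 was called and the rest had adjusted p up to 0.0829. GTT1, a glutathione S-transferase of the endoplasmic reticulum, stood just outside the threshold with 1.08, 4.55 and 1.68 in S. uvarum at 12°C, against -0.20, -0.95 and -0.82 in Fermol cryophile at 12°C. At 28°C GTT1 read 2.93, 3.39 and 4.06 in S. uvarum, against 1.05, 0.82 and -0.77 in Fermol cryophile. Its arrays did not overlap and its averaged difference was 3.1 (SE 0.59, limma adjusted p = 0.0515). The largest average of these was that of PBI1 (3.25, SE 0.68, limma adjusted p = 0.0756). The others were PST2, a flavodoxin-like protein (2.54, SE 0.53), SDH2, the iron-sulphur subunit of succinate dehydrogenase (2.38, SE 0.51), IME2, a kinase of meiosis (2.38, SE 0.54), NAS2, which helps the proteasome cap assemble (2.12, SE 0.43), CHA1, which breaks down serine and threonine (1.98, SE 0.43), NBP35, a factor of iron-sulphur cluster assembly (1.82, SE 0.41), LCB2, a subunit of the first enzyme of sphingolipid synthesis (1.80, SE 0.41), and GND2, the minor 6-phosphogluconate dehydrogenase (1.73, SE 0.38). ALD6 is given with its pathway below. In all 12 the S. uvarum mean lay above T73 at both temperatures, in 7 of them at least 2-fold, while the Fermol cryophile mean was within 2-fold of T73 at both temperatures in 6.

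Of the 12 lower in S. uvarum 4 were called. YER189W, an uncharacterised gene next to a chromosome end, missed the threshold with -1.98, -4.86 and -1.85 in S. uvarum at 12°C, against 0.78, 0.30 and 0.04 in Fermol cryophile at 12°C. At 28°C it read -4.86, -2.73 and -2.87 in S. uvarum, against -1.22, -1.40 and -0.33 in Fermol cryophile. The arrays did not overlap and the difference was -2.89 (SE 0.54, limma adjusted p = 0.0515). Besides COS7 and COS8 the remaining genes were YKL225W (-2.61, SE 0.55), COX7, a subunit of cytochrome c oxidase (-1.76, SE 0.40), BUB1, a kinase of the mitotic spindle checkpoint (-1.72, SE 0.38), MOR1 (-1.72, SE 0.36) and YNR068C (-1.38, SE 0.32). In all 12 the S. uvarum mean lay below T73 at both temperatures, in 10 of them at least 2-fold, and the Fermol cryophile mean was within 2-fold of T73 at both temperatures in 7. These genes were chosen for being 2-fold apart at both temperatures, so that their gaps are a description.

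Acetaldehyde dehydrogenases, which turn acetaldehyde into acetate, and the enzymes that make acetyl-CoA from acetate had 0 of 8 genes called. All 8 averaged differences lay above 0, 6 with an unadjusted p under 0.05, where 7.9% of all genes reached this in the higher direction. The median was 1.31 on average, with 0.58 at 12°C and 1.49 at 28°C. This list and its ACS genes and ALD6 were chosen with earlier results of these data known, so the count is a description. ALD6, the main cytosolic acetaldehyde dehydrogenase and the usual source of acetate in wine, read 0.09, 0.92 and 1.84 in S. uvarum at 12°C, against -1.08, -1.64 and -0.77 in Fermol cryophile at 12°C. At 28°C ALD6 read 0.38, 3.02 and 3.04 in S. uvarum, against -1.49, -0.81 and -0.84 in Fermol cryophile. Its arrays did not overlap at either temperature, and the averaged difference was 2.65 (SE 0.59, limma adjusted p = 0.0829). ALD4, the mitochondrial enzyme, differed by 1.65 (SE 0.63, limma adjusted p = 0.274), and its arrays overlapped at 28°C. The acetyl-CoA synthetases had their difference at 28°C. ACS2 read -0.07, 0.28 and 0.33 in S. uvarum at 12°C, against -0.12, 0.23 and 0.33 in Fermol cryophile, which are overlapping values near T73. At 28°C ACS2 read 3.06, 2.75 and 3.97 in S. uvarum, against 0.12, 0.63 and -0.21 in Fermol cryophile, with no overlap. ACS1 averaged -0.47 ± 1.14 in S. uvarum and -0.83 ± 0.20 in Fermol cryophile at 12°C, and 3.43 ± 1.87 in S. uvarum and 0.25 ± 0.68 in Fermol cryophile at 28°C (SD, n = 3 each). The change with temperature was 3.05 for ACS2 and 2.82 for ACS1 and was called in neither (limma adjusted p = 0.997 for both). The count of 6 ranged between 5 and 6 when an array was left out.

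**Figure D4:**
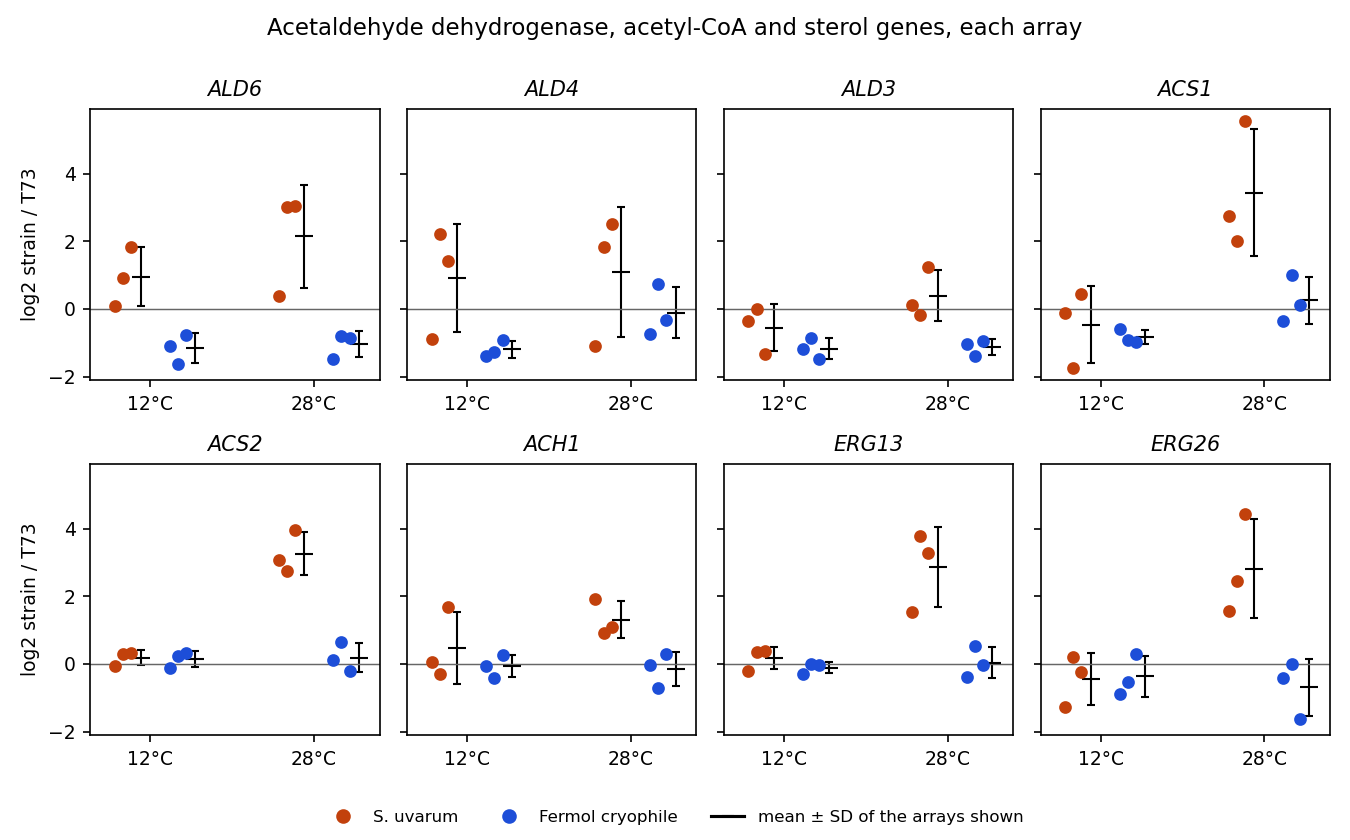
Log2 ratio of strain over T73 on each array for 6 acetaldehyde dehydrogenase and acetyl-CoA genes and for ERG13 and ERG26, S. uvarum left of Fermol cryophile at each temperature, with mean ± SD. ALD6 is apart at both temperatures, whereas ACS2 overlaps at 12°C and reads 2.75 to 3.97 in S. uvarum at 28°C.

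Sterol synthesis starts from acetyl-CoA, and its genes are given next. Of the 23 genes 0 were called, and 8 had an unadjusted p under 0.05 and lay higher in S. uvarum (34.8%, against 7.9% of all genes). The median difference was 0.11 at 12°C and 1.38 at 28°C. The per-array medians at 28°C were 0.26, 1.45 and 2.80 in S. uvarum, against -0.29, 0.49 and -0.25 in Fermol cryophile, so that the arrays overlapped. ERG13, which makes HMG-CoA, averaged 0.17 ± 0.33 in S. uvarum and -0.11 ± 0.16 in Fermol cryophile at 12°C, and 2.87 ± 1.18 in S. uvarum and 0.04 ± 0.46 in Fermol cryophile at 28°C (SD, n = 3 each). Without Fermol cryophile replicate C at 28°C, the array with the narrow spread, or S. uvarum replicate C at 28°C, the count of 8 was 4, and without S. uvarum replicate A at 28°C it was 12. In fatty acid synthesis and desaturation 0 of 12 were called. An unadjusted p under 0.05 was reached by 4 that lay higher (33.3%, against 7.9% of all genes). The list median was 1.00 on average, with 0.45 at 12°C and 1.24 at 28°C. FAA3, an acyl-CoA synthetase, had the smallest p (1.72, SE 0.39, limma adjusted p = 0.0829). The count of 4 was 2 with S. uvarum replicate C at 28°C left out and 7 with S. uvarum replicate A at 28°C left out.

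The aryl-alcohol dehydrogenase family, whose substrates in wine are not settled, had 0 of 6 on the array called. An unadjusted p under 0.05 was reached by 5 that lay higher (83.3%, against 7.9% of all genes). All 6 lay above 0, with a median of 1.33. AAD3 read -0.85, 0.27 and 0.12 in S. uvarum at 12°C, against -0.93, -1.82 and -2.85 in Fermol cryophile at 12°C. At 28°C AAD3 read 2.40, 1.98 and 4.09 in S. uvarum, against -0.23, 0.79 and 0.16 in Fermol cryophile. The gap at 12°C was narrow, and the averaged difference was 2.15 (SE 0.53, limma adjusted p = 0.0966). Members share sequence and are not independent, and without 1 array the count of 5 ranged between 3 and 5. Alcohol dehydrogenases as a list had a median of -0.09. Of these 8 genes, 2 lay higher with an unadjusted p under 0.05 (25%, against 7.9% of all genes). That count ranged between 1 and 2 without 1 array. ADH6, a broad-substrate NADPH enzyme, differed by 1.97 (SE 0.70, limma adjusted p = 0.241), and its arrays overlapped at both temperatures. Among the Ehrlich pathway genes, which turn amino acids into higher alcohols, 1 of 9 had an unadjusted p under 0.05 (11.1% higher, against 7.9% of all genes). It was ARO10, the phenylpyruvate decarboxylase, at 1.48 (SE 0.45, limma adjusted p = 0.175), with 1.57, 3.29 and 2.05 in S. uvarum at 12°C, against 1.03, 0.47 and 0.59 in Fermol cryophile at 12°C. At 28°C ARO10 read 1.20, 1.36 and 0.67 in S. uvarum, against -0.20, -0.82 and 0.18 in Fermol cryophile, without overlap at either temperature.

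Cell wall mannoproteins that are induced by cold and by lack of oxygen had 0 of 7 on the array called and a median of 1.20. An unadjusted p under 0.05 was reached by 4 that lay higher in S. uvarum (57.1%, against 7.9% of all genes). TIR3 differed by 2.11 (SE 0.49, limma adjusted p = 0.0829) and TIP1 by 1.51 (SE 0.46, limma adjusted p = 0.17). The arrays of TIR3 overlapped at 12°C and those of TIP1 at 28°C. Without 1 array the count of 4 ranged between 3 and 4. Proteasome subunits had 0 of 31 called, 28 above 0, and a median of 0.80. Of them 8 lay higher with an unadjusted p under 0.05 (25.8%, against 7.9% of all genes). RPT3, an ATPase of the proteasome base, differed by 2.07 (SE 0.48, limma adjusted p = 0.0829). On single arrays the proteasome median was -1.01, 0.59 and -0.17 in S. uvarum at 12°C, against -1.10, -0.89 and -0.81 in Fermol cryophile at 12°C. At 28°C it was 0.66, 1.03 and 2.34 in S. uvarum, against 0.53, 0.89 and -0.40 in Fermol cryophile. The strains overlapped at both temperatures, and the count of 8 was 5 without S. uvarum replicate B at 12°C or replicate C of either strain at 28°C and 11 without S. uvarum replicate A at 12°C.

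The citrate and glyoxylate cycle went both ways, with 0 of 23 called. At an unadjusted p under 0.05, 7 lay higher (30.4%, against 7.9% of all genes) and 2 lower (against 4.99% of all genes). SDH2 read 0.12, 2.33 and 1.50 in S. uvarum at 12°C, against -1.04, -1.51 and -0.79 in Fermol cryophile at 12°C. At 28°C SDH2 read 2.20, 3.14 and 4.76 in S. uvarum, against 1.60, 1.68 and -0.19 in Fermol cryophile. SDH2 was thus apart at both temperatures (limma adjusted p = 0.0781), as was LSC2, a subunit of succinyl-CoA ligase (2.20, SE 0.51, limma adjusted p = 0.0829). SDH1, the partner subunit of SDH2, had a difference of -1.04 (SE 0.40, limma adjusted p = 0.284). The higher count of 7 was 4 without replicate C of S. uvarum or of Fermol cryophile at 28°C.

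Cytosolic ribosomal proteins had 0 of 136 called, 14 with an unadjusted p under 0.05 and higher and 2 lower, and their median differed by temperature, 1.25 at 12°C and -0.20 at 28°C. On single arrays the median was -0.19, 0.76 and 0.66 in S. uvarum at 12°C, against -0.63, -0.87 and -0.93 in Fermol cryophile at 12°C. At 28°C it was 0.78, 1.10 and 1.91 in S. uvarum, against 2.14, 2.01 and 0.21 in Fermol cryophile. The S. uvarum medians lay above those of Fermol cryophile at 12°C and among them at 28°C, where replicate C of Fermol cryophile was far below its other arrays. The count of 14 is 10.3% of the list, against 7.9% of all genes. It was 7 without that array and 28 without S. uvarum replicate A at 12°C. Ribosome biogenesis factors had a median of -0.18, with 1 of 107 higher and 5 lower at an unadjusted p under 0.05. The shares over all genes were 7.9% higher and 4.99% lower. Without 1 array the counts of biogenesis factors ranged between 1 and 4 higher, with 4 without S. uvarum replicate A at 12°C. They ranged between 3 and 6 lower, with 3 without Fermol cryophile replicate A at 12°C.

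**Figure D5:**
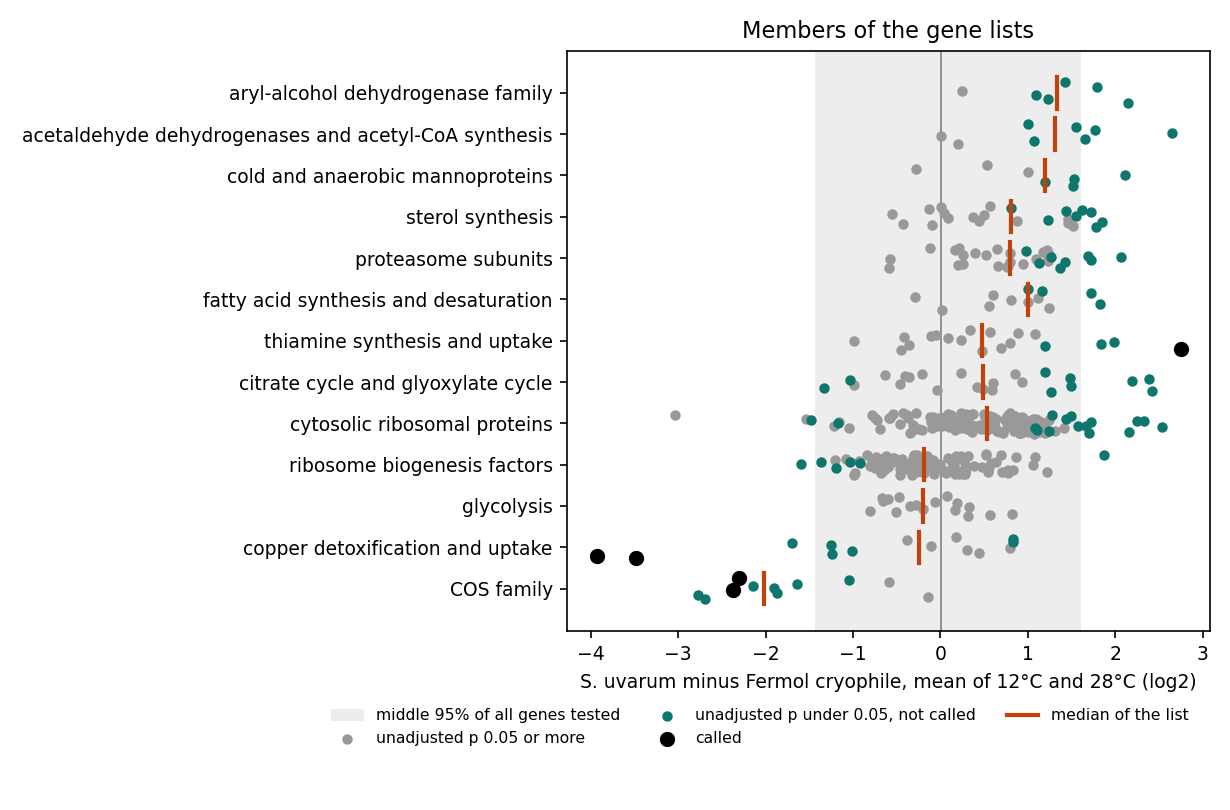
Difference of S. uvarum minus Fermol cryophile on the log2 scale, averaged over 12°C and 28°C, for each member of 13 gene lists; grey shading spans the middle 95% of all genes tested (-1.43 to 1.60) and orange bars are list medians. The COS family has the lowest median (-2.02) and the aryl-alcohol dehydrogenase family the highest of those shown (1.33).

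Of the other genes of aroma and wine making, SSU1, the sulfite pump, differed by -0.10 (SE 0.59), and MUP3, an amino acid permease whose S. uvarum DNA did not hybridise in the study's test of the arrays, by 0.24 (SE 0.49). In sulfate assimilation 0 of 15 were called and 4 had an unadjusted p under 0.05 and lay higher, among them MET16 (1.66, SE 0.45, limma adjusted p = 0.119). PUT4, the proline permease, was the 1 of 17 amino acid and ammonium permeases with an unadjusted p under 0.05 (-1.88, SE 0.40, limma adjusted p = 0.0781). Ester enzymes had 3 of 8 with such a p (median 0.70), glycolysis 0 of 17 (median -0.20), hexose transporters 0 of 19 (median 0.39), the branched-chain amino acid pathway 0 of 10 (median 0.11) and glycosidases of aroma release 0 of 4 (median 0.34). Without 1 array the ester count of 3, all higher, ranged between 1 and 3, being 1 without replicate A of either strain at 28°C or replicate B of either strain at 12°C, and the hexose transporter count of 0 ranged between 0 and 4, being 4 without S. uvarum replicate A at 28°C. Medians in this paragraph are of differences averaged over the temperatures, and some lists changed sign between these. The glycolysis median was 0.38 at 12°C and -0.77 at 28°C, and that of the branched-chain pathway 0.55 at 12°C and -0.31 at 28°C. Glycolysis and the glycosidases had 0 higher and 0 lower without any 1 array. The remaining lists likewise had 0 genes called. For all counts in this paragraph, the shares over all genes were 7.9% higher and 4.99% lower. Members with an unadjusted p under 0.05 numbered 1 higher of 12 in aromatic amino acid synthesis (median -0.06), 2 higher of 13 in maltose and isomaltose use (median 0.22; the smallest p for the maltase MAL32, 1.57, SE 0.44) and 0 of 5 tested flocculins (median -0.13). They numbered 1 higher of 23 seripauperins (median 0.07), 1 higher of 12 genes of glycerol synthesis and transport (median 0.21; the glycerol importer STL1, 1.42, SE 0.52) and 1 higher of 16 in trehalose and glycogen (median 0.13). In respiratory complexes III and IV 2 of 22 lay higher and 1 lower, the last being COX7, and among cytosolic heat shock proteins 1 of 18 lay higher (median 0.38). The asparaginase II copies had 1 higher of 4 (median 1.10), and the mating type and haploid-specific genes 1 higher and 1 lower of 18, the last being STE3, the receptor for a-factor (-1.56, SE 0.49). These small counts moved when 1 array was left out, the most for cytosolic heat shock proteins, which had 0 to 4 higher, and for trehalose and glycogen, with 0 to 3 higher. These p-values do not show that the strains were alike, since a difference of 1 on the log2 scale is about 2 SE for the median gene.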

How the data were processed

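Each array was deposited as a column of log2 ratios, 1 for each open reading frame. The methods describe indirect labelling of amplified RNA. Raw data with background subtracted came from GenePix Pro 6.0, and ratios were normalised in Acuity 4.0, where spots not found were removed. The dye in the numerator was not stated; the labels put the strain in Cy3 and such software writes Cy5 over Cy3, so the sign was turned. After turning, 72 of 72 directions of single genes in the study's text matched, which bears on the sign of the table but does not test the recorded dyes. Scanner intensities were not used here, and precision is limited by how few arrays each group holds. The strain field of the S. uvarum labels gives a collection number that differs between replicates. All titles give CECT 12600, and the titles were followed.

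Of 6180 lines 2 controls were left out and 6 genes with repeated lines were averaged, leaving 6172 genes. Names came from the RefSeq annotation of R64 (5148 open reading frames with a symbol, 492 with no annotated gene). Ratios beyond 10 on the log2 scale (57 on the 12 arrays) were set to missing. limma 3.58.1 in R 4.3.3 fitted the 6 strain and temperature groups of all 18 arrays with a shared spread (prior degrees of freedom 5.67), two-sided, with at least 2 values per group and Benjamini-Hochberg adjustment over all genes tested. The script was tested on simulated data. Named genes were 12 in each direction, the called ones filled up by smallest unadjusted p among genes at least 2-fold apart at both temperatures and measured on all 12 arrays, together with the leading members of 30 gene lists and 8 genes chosen by name. Members, lists and rules were chosen with earlier results of these data known. Alternatives kept the extreme ratios, used the 12 arrays alone, weighted, centred, scaled or quantile-normalised arrays, added a replicate block, required all values or left out arrays.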

Additional observations from a re-analysis of the deposited data

How the results depend on the processing

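The count of 5 called genes, and that of called genes with the same direction at both temperatures, was 3 with the extreme ratios kept, 2 on the 12 arrays alone, 8 with scaled arrays, 11 with quantile normalisation and 125 (124 in the same direction) with array weights, where 65 genes were called at 12°C and 11 at 28°C. Quantile normalisation called 1 gene at 28°C. With the replicate letter as a block 12 genes were called (5 higher, 7 lower), including all 5. Same-letter deviations correlated between -0.347 and 0.208, so the letters were not taken as pairs. Between arrays of differing letters the range was -0.454 to 0.396, both ends at 28°C. Leaving out 1 array gave 2 to 73 called genes, 73 without S. uvarum replicate A at 12°C, 33 without S. uvarum replicate A at 28°C and 9 without Fermol cryophile replicate C at 28°C. It gave 0 to 9 genes at 12°C and 0 to 2 at 28°C. The change with temperature was called in 0 genes throughout. The causes were not tested. Of the 422 genes 2-fold apart, 90 were 3-fold apart, and centring gave 166 higher and 243 lower against 209 and 213. Of the genes named by the rule SSU1 alone turned its sign, reading 0.17 with scaled arrays and between -0.60 and 0.18 without 1 array.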
